A study of Rattus norvegicus with 69 samples.

Results

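A set of 6 genes for scaffold and adhesion proteins of the excitatory synapse was followed in the hippocampal CA1 region of sleep-deprived rats. They were Homer1, Dlg4, Dlgap1, Grip1, Grip2 and Nlgn1. All probe sets annotated with 1 of these symbols and no other were taken, which gave 13 of the 8740 probe sets other than controls (6 for Homer1, 2 each for Dlgap1 and Grip2, and 1 each for Dlg4, Grip1 and Nlgn1). A further probe set shared by Hax1 and Homer1 was left out. Each probe set was reported on its own, because the sequences read by each are not given in the sources used here. Which Homer1 splice form a probe set reads is therefore not stated, and probe sets AB017140_at and AB017140_g_at were designed from the same mRNA.

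Single male Fisher 344 rats, young adults, gave 1 array each (69 in all). HC animals stayed in their home cage (5 in cohort 1 and 12 in cohort 2). SD animals lived with a cage mate on small platforms standing in water for 24 hours (24SD, 8 animals in each cohort) or 72 hours (72SD, 8 in cohort 1 and 12 in cohort 2), where sleep was prevented. NES animals, of cohort 1, met the same chamber with a grid laid over the platforms, so that the unfamiliar place was kept while sleep was possible (24NES, 10 animals, and 72NES, 6 animals). Active avoidance training preceded the experiment in the HC and SD groups of cohort 1, and the study names no NES or cohort 2 animal as trained. Chamber mates are not labelled, so every p treated the animals as independent. The tissue was a dissected block, in which fewer cells of a type and less RNA per cell cannot be told apart.

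Beneath the membrane of an excitatory synapse, scaffold proteins hold receptors in place and tie them to signalling enzymes. DLG4 (PSD-95) anchors NMDA receptors and, through auxiliary proteins, AMPA receptors, and DLGAP1 links DLG4 to the SHANK layer below it. Homer proteins join SHANK to group I metabotropic glutamate receptors and to calcium channels of internal stores. The Homer1 gene also gives short forms, induced by neuronal activity, that lack the coil by which the long forms multimerize and so loosen these links. Homer1 mRNA is a widely used marker of time spent awake. GRIP1 and GRIP2 bind the tails of AMPA receptor subunits, and neuroligin 1 (Nlgn1) crosses the cleft to bind presynaptic neurexins.

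In the RefSeq annotation of GRCr8, Homer1 lies at chr2:26279012-26388279, Dlg4 at chr10:55239397-55267780, Dlgap1 at chr9:117304144-118173463, Grip1 at chr7:56820501-57477877, Grip2 at chr4:125828609-125913693 and Nlgn1 at chr2:110184987-111110316. The 250 bases before the annotated start are shown for Homer1 and for Vgf, an activity-induced neuropeptide gene whose signal followed 1 Homer1 probe set most closely, because cAMP response elements and related letters are the ones best known before activity-induced genes. Both run 5′ to 3′ on the strand of the gene, and capitals mark the full cAMP response element TGACGTCA.
Homer1, GRCr8 chr2:26278762-26279011, plus strand: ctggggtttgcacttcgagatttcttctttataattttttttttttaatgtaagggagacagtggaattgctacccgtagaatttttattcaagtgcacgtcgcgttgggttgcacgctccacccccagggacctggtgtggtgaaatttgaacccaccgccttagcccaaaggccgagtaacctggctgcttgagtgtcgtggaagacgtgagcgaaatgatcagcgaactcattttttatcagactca
Vgf, GRCr8 chr12:25277021-25277270, minus strand: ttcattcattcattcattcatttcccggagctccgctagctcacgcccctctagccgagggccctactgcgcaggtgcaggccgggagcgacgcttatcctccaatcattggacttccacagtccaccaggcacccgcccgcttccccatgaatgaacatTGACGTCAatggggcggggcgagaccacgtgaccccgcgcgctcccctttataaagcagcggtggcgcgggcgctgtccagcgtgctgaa

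The windows searched were the 250 bases before a RefSeq start, 33469 in all, on either strand. TGACGTCA was found in 1.59% of them and TGACG, which lies within it, in 18.2%. The AP-1 site TGAGTCA was found in 4.05% and the E-box CACGTG in 5.59%. The Vgf window held TGACGTCA at -90 and CACGTG at -65 from the start. The Homer1 window held none of these letters. Of the other members, 1 of the Dlgap1 windows held TGAGTCA at -63, and the windows of Dlg4, Grip1, Grip2 and Nlgn1 held no match. A match describes letters only.

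The deposited values were MAS5 signals on a linear scale, 1 per probe set and array, and changes below are on the log2 scale with their standard error (SE). No member signal was 0. The Homer1, Dlg4, Dlgap1 and Grip2 probe sets lay above the median mean signal of all probe sets, whereas those of Nlgn1 (percentile 38.3) and Grip1 (percentile 26.2) lay below it. All arrays had a trimmed mean of 1502, and pairs of arrays correlated at 0.909 to 0.978. Of the arrays, 24NES replicate 58 correlated least with its group (mean r 0.929). The GAPDH 3′ to 5′ ratio, a sign of RNA integrity, ran from 0.916 to 1.26, highest in 72NES replicate 71. Of 7 markers fixed for CA1 pyramidal cells 3 were on the array, with Pou3f1 and Man1a1 above the median signal and Spink8 at percentile 6.36. The log2 of the summed signal of 12 astrocyte probe sets ran from 15.62 to 15.75 in HC of cohort 1, and markers of dentate and CA3 neurons were read as well. The same sum over 4 choroid plexus probe sets was 15.73 in 24SD replicate 32 of cohort 2 and at most 12.09 on any other array.

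Whether SD altered these mRNAs was asked first, in limma with cohort as a term over 53 arrays. No member passed an adjusted p of 0.05 (Benjamini-Hochberg over all 8740 probe sets) in 24SD against HC, where 18 probe sets in all were called (0.206%), or in 72SD against HC, where 2 were (0.0229%). At an unadjusted p under 0.05, 2 of 13 member probe sets were called in 24SD (14.8% of all) and 4 of 13 in 72SD (7.16% of all). The 3 probe sets that the study listed among its SD genes on these same arrays, AB003726_at of Homer1, AF090113_g_at of Grip2 and U22952_at of Nlgn1, were among these, so their presence is not independent evidence. The median change of the members was 0.036 in 24SD and 0.065 in 72SD, against -0.030 and -0.013 over all probe sets. Markers of dentate granule cells (5 probe sets of 3 genes) had a median change of 0.15 in 24SD, with 3 changes positive and 2 negative. At an unadjusted p under 0.05, 2 were higher (5.69% of all), with 0 called after adjustment. Other cell types had unadjusted calls too. Of 12 astrocyte probe sets 2 were higher and 3 lower (9.08% of all), and of 8 microglial probe sets 2 were higher and 1 lower. Of 3 CA1 markers 1 was higher, and of 7 CA3 probe sets 1 was lower. The log2 of the summed dentate signal ran from 12.55 to 12.87 in HC and from 12.92 to 13.06 in 24SD of cohort 1, which did not overlap. In cohort 2 it ran from 12.53 to 13.37 and from 12.84 to 13.54. Bright probe sets weigh most in such a sum, and how often groups fail to overlap over all probe sets was not counted. The part of these markers in the 24SD values of the members was not tested.

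**Figure D1:**
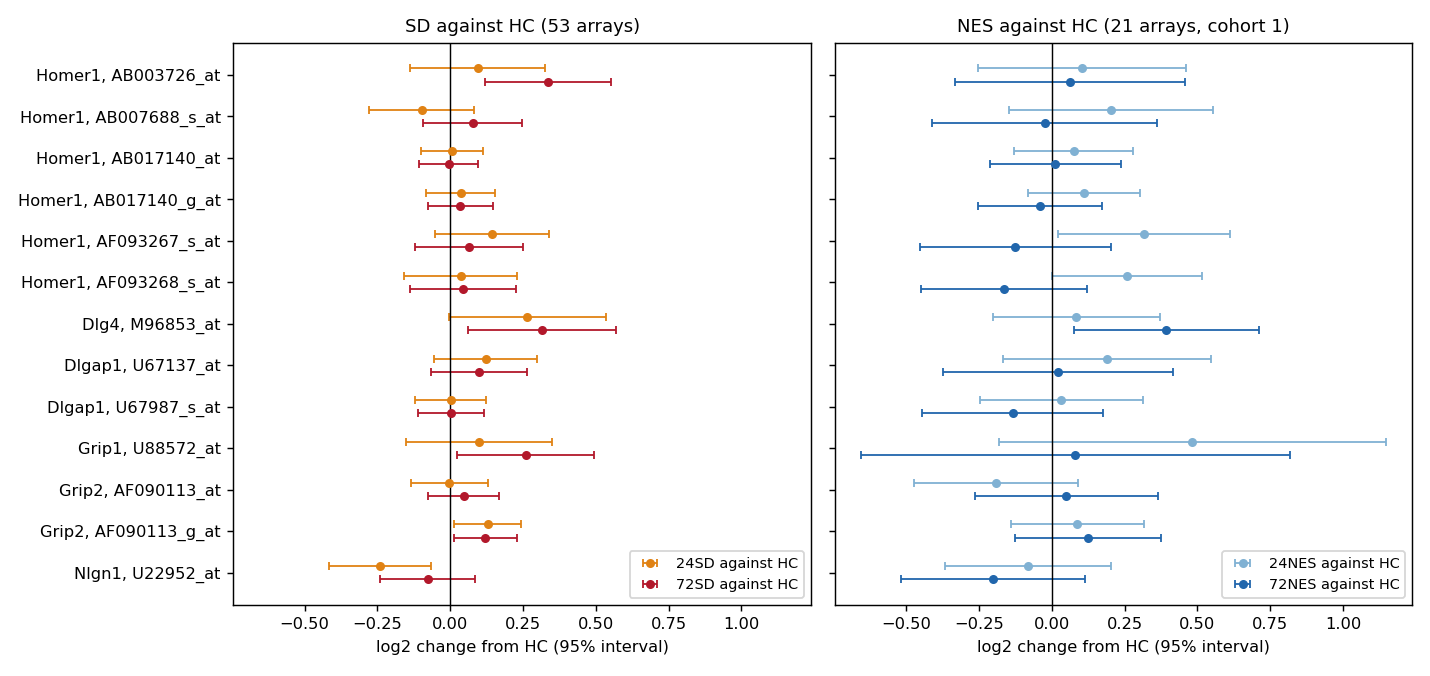
Log2 change from HC of the 13 probe sets, with points for 24 and 72 hours and bars for 95% intervals, in SD (left, 53 arrays) and NES (right, 21 arrays of cohort 1). In 72SD the Homer1 probe set AB003726_at stands at 0.33 while the other 5 Homer1 probe sets lie between -0.0050 and 0.077, and most NES intervals are wider than those of SD.

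For Homer1 by AB003726_at, the HC signals in cohort 1 were 2459, 2684, 2485, 2330 and 2533, and those of the 8 72SD animals ran from 2235 through a median of 2787 to 4077. In cohort 2 HC ran from 2272 through a median of 3122 to 5120, and 72SD from 2296 through 4673 to 6168. Of the 72SD animals 16 of 20 lay above the HC mean of their cohort, but the groups overlapped: 4 of 8 were above the highest HC animal of cohort 1 and 3 of 12 above that of cohort 2. The change was 0.33 (SE 0.11), a fold of 1.26, with an unadjusted p of 0.00313 and a Benjamini-Hochberg adjusted p of 0.415 in limma. In cohort 1 alone it was 0.24 (SE 0.13) and in cohort 2 alone 0.39 (SE 0.15), and the difference between cohorts was 0.15 (SE 0.23, limma adjusted p 0.942).

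After 24 hours the same probe set gave medians of 2612 in cohort 1 and 3517 in cohort 2, inside the range of HC in both. In cohort 1, 4 of 8 24SD animals were above the highest HC animal, as many as in 72SD, and in cohort 2 0 of 8 were. Its change was 0.094 (SE 0.12, limma adjusted p 0.751), with a 95% interval from -0.14 to 0.33. In 72SD against 24SD it differed by 0.24 (SE 0.11, unadjusted p 0.0328, limma adjusted p 0.998), where 0 of 8740 probe sets were called after adjustment (0%) and 359 without it (4.11%). Without adjustment 2 of 13 members were called there, the other being AB007688_s_at of Homer1, which differed by 0.17 (SE 0.086, unadjusted p 0.0466, limma adjusted p 0.998). The animals also spread more at 72 hours: the SD of log2 signals pooled over cohorts was 0.41 in 72SD, 0.19 in 24SD and 0.32 in HC. Equality of these spreads was not tested.

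The other 5 Homer1 probe sets gave smaller values in 72SD against HC, and the difference between probe sets was not tested. AB007688_s_at had medians of 534 in HC and 653 in 72SD in cohort 1, but of 854 and 860 in cohort 2. AB017140_at had medians of 3108 and 3354 in cohort 1 and of 4582 and 4249 in cohort 2, and its 72SD change differed between cohorts by -0.12 (SE 0.10, limma adjusted p 0.861). Changes of these 5 in 72SD lay between -0.0050 and 0.077 with adjusted p from 0.862 to 0.985 in limma, and the upper ends of their 95% intervals between 0.096 and 0.25. In 24SD they lay between -0.098 and 0.14. Within an array, AB003726_at less the mean of the other 5 stood at 0.68 ± 0.41 (SD, n = 12) in HC and 1.04 ± 0.42 (SD, n = 12) in 72SD of cohort 2, and at 0.88 ± 0.13 (SD, n = 5) and 1.06 ± 0.45 (SD, n = 8) in cohort 1. That quantity is a log2 difference between probe sets of unlike brightness and is given as a description.

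**Figure D2:**
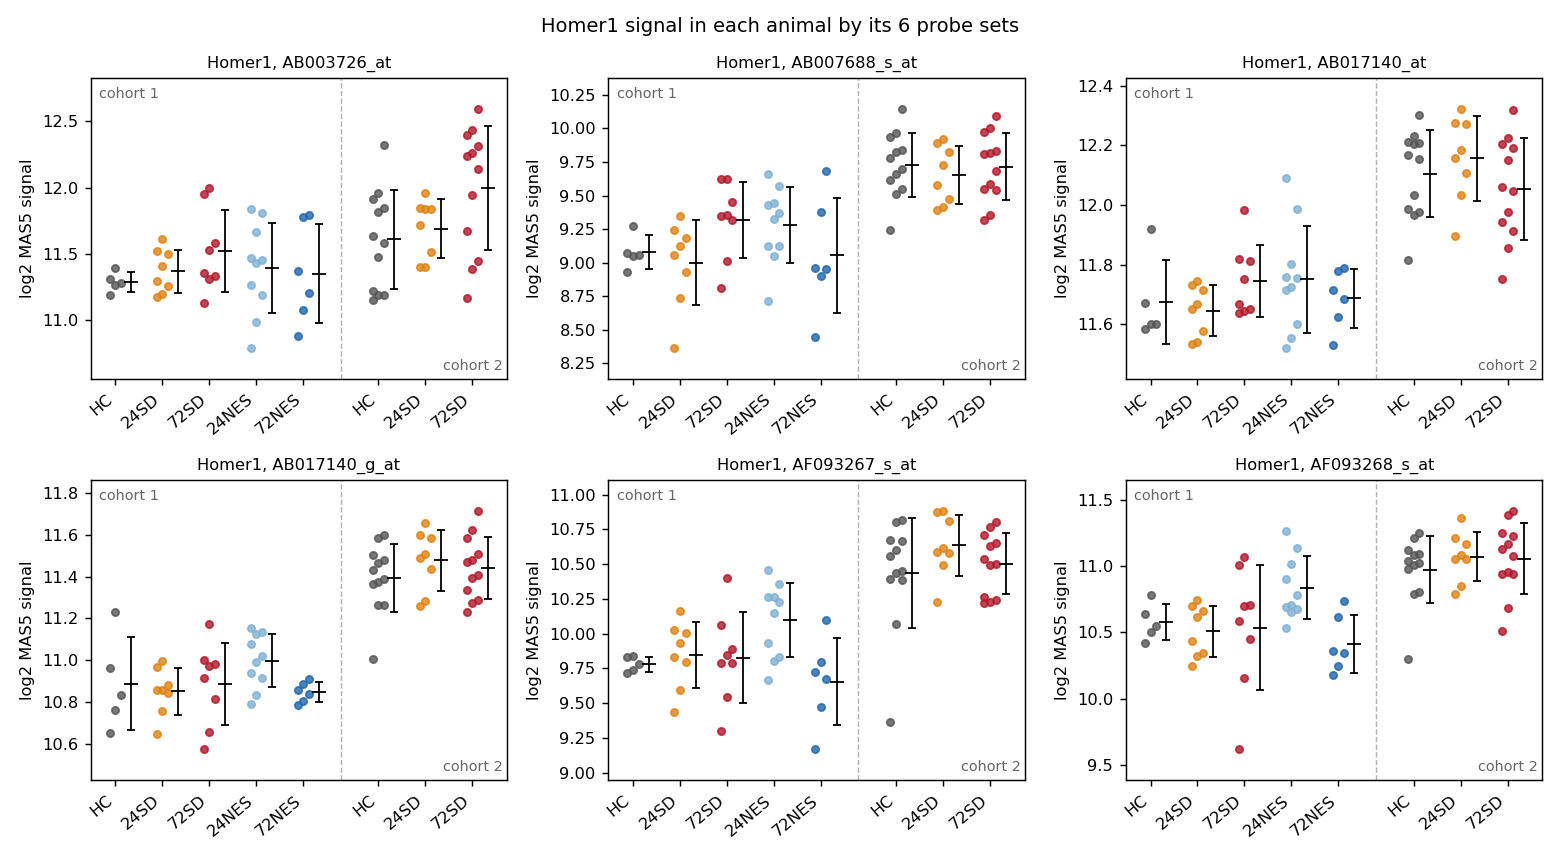
Log2 signal of the 6 Homer1 probe sets in every animal by group, cohort 1 left and cohort 2 right of the dashed line, with the mean and SD beside each group. All 6 panels stand higher in cohort 2, and the 72SD animals of cohort 2 reach 6168 (linear signal) by AB003726_at.

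Dlg4, the gene of PSD-95, had HC signals in cohort 1 of 4815, 3912, 3716, 6037 and 5539, and 24SD and 72SD medians of 5412 and 5428. In cohort 2 HC ran from 1353 through 4094 to 5869, 24SD from 3042 through 4684 to 5249, and 72SD from 3372 through 4651 to 5796. No SD animal of cohort 2 was above the highest HC animal, and the HC group reached far lower. The change was 0.27 (SE 0.13, unadjusted p 0.0543, limma adjusted p 0.349) in 24SD and 0.32 (SE 0.13, unadjusted p 0.0157, limma adjusted p 0.563) in 72SD. Without HC replicates 10 and 17, left out after their low Dlg4 signals (1596 and 1353) had been seen, the 72SD change was 0.15 (SE 0.093). Over all probe sets these arrays correlated with their group at a mean r of 0.967 and 0.961.

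Nlgn1 (neuroligin 1) was at lower mean signals in 24SD. In cohort 1 the HC signals were 289, 300, 262, 295 and 306, and those of 24SD ran from 159 through 228 to 305, with 6 of 8 below every HC animal. In cohort 2 HC ran from 182 through 223 to 286 and 24SD from 147 through 219 to 237, with 1 of 8 below. The change was -0.24 (SE 0.087, unadjusted p 0.0075, limma adjusted p 0.178), and it was -0.37 (SE 0.15) in cohort 1 alone and -0.14 (SE 0.10) in cohort 2 alone. Without 24SD replicate 32, the array with choroid plexus signal, it was -0.24 (SE 0.090). At 72 hours it was -0.077 (SE 0.082, limma adjusted p 0.859). These are dim signals, and detection calls were not used here.

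Of the AMPA receptor scaffolds, Grip2 by AF090113_g_at gave differences of 0.13 (SE 0.057, unadjusted p 0.0287, limma adjusted p 0.279) in 24SD and 0.12 (SE 0.054, unadjusted p 0.029, limma adjusted p 0.631) in 72SD. Its medians in cohort 2 were 1669 (HC), 1758 (24SD) and 1700 (72SD), those in cohort 1 were 1526, 1540 and 1507, and the ranges overlapped throughout. The second Grip2 probe set, AF090113_at, gave -0.0029 (SE 0.065) and 0.046 (SE 0.061). Grip1 differed by 0.26 (SE 0.12, unadjusted p 0.0324, limma adjusted p 0.652) in 72SD, from medians of 88.0 to 124 in cohort 1 and 118 to 122 in cohort 2. The lowest HC signal of Grip1 was 43.7, against 102.5 in 72SD, in cohort 2. For Dlgap1, the changes of U67137_at were 0.12 (SE 0.088) and 0.098 (SE 0.083) and those of U67987_s_at 0.0022 (SE 0.061) and 0.0030 (SE 0.057), with limma adjusted p from 0.525 to 0.991.

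Taking both durations together, the limma F-test called 0 members after adjustment (0.114% of all probe sets) and 4 of 13 at an unadjusted p under 0.05 (10.3% of all). They were AB003726_at of Homer1 (p 0.00856), Nlgn1 (p 0.0234), Dlg4 (p 0.0399) and AF090113_g_at of Grip2 (p 0.0436), with Benjamini-Hochberg adjusted p from 0.324 to 0.473 in limma. The cohorts were then compared for each SD change. For 24SD, 0 of 13 members were called after adjustment (0% of all) and 1 of 13 without it, AF090113_at of Grip2 (0.29, SE 0.13, limma adjusted p 0.635; 7.19% of all). For 72SD, 0 of 13 were called by either rule, against 0.126% and 7.65% of all.

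**Figure D3:**
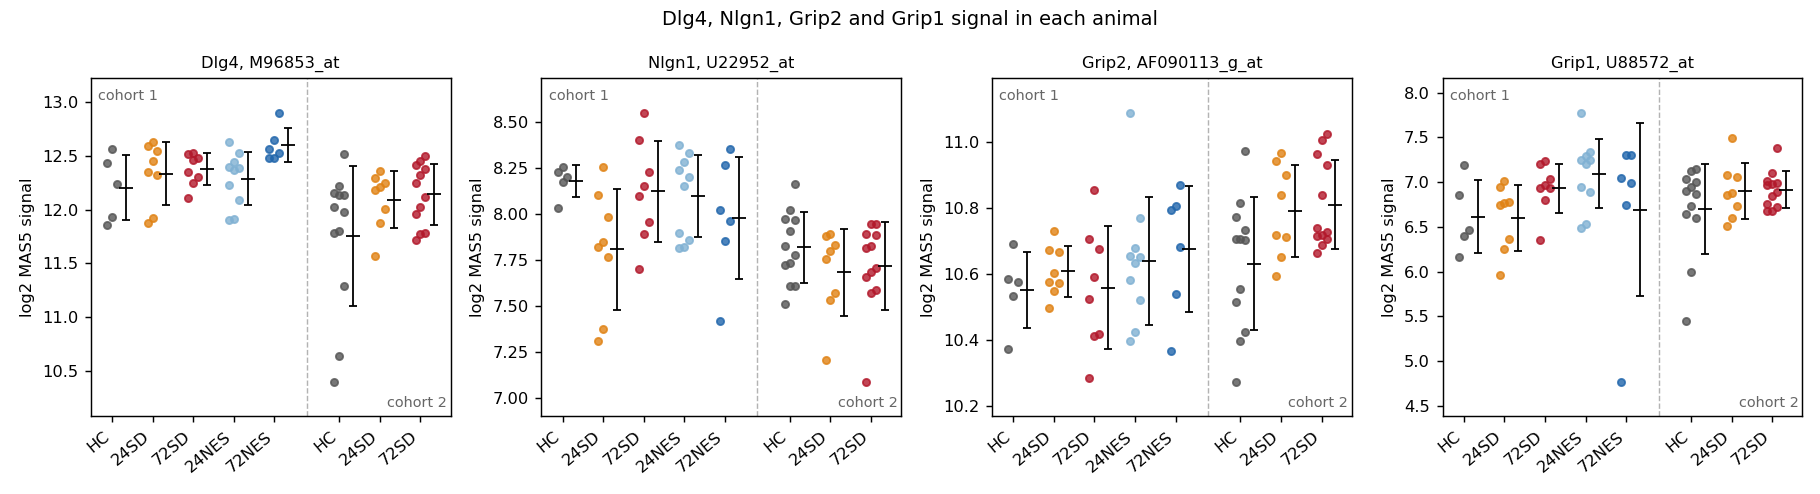
Log2 signal of Dlg4, Nlgn1, Grip2 (AF090113_g_at) and Grip1 in every animal by group, cohort 1 left and cohort 2 right of the dashed line, with mean and SD. Dlg4 in HC of cohort 2 holds the lowest signal, 1353, and Grip1 in 72NES holds 1 animal at 27.3.

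NES was meant to ask what an unfamiliar chamber does when sleep is possible. It was set against the same 5 HC arrays of cohort 1 that the SD animals share. Those HC animals had been trained and no NES animal is named as trained, so training may differ here along with the chamber. No member passed the adjusted threshold in 24NES (0.0114% of all) or in 72NES (0%). Unadjusted, 1 of 13 was called in 24NES (10.7% of all) and 1 of 13 in 72NES (5.03% of all). Homer1 by AB003726_at gave 0.10 (SE 0.17, interval -0.25 to 0.46) in 24NES and 0.062 (SE 0.19, interval -0.33 to 0.46) in 72NES, with medians of 2782 and 2498 against 2485 in HC. These intervals hold the 72SD change as well as 0. By this probe set 6 of 10 24NES animals were above the highest HC animal and 2 below the lowest. In 72NES 2 of 6 were above and 2 below. In 24NES, markers of other cells also differed from HC without adjustment, where 6.67% of all were higher and 4.06% lower. Higher were 2 of 5 dentate (median 0.23), 2 of 7 CA3 (median 0.17) and 2 of 12 astrocyte probe sets (median -0.073). Of 3 CA1 markers 1 was higher (median 0.23). Lower were 2 of 2 blood (median -0.51) and 1 of 8 microglial probe sets (median -0.11), with 0 called after adjustment. In 72NES, where 5.03% of all were called, 1 of 7 CA3 probe sets was higher. There 2 of 12 astrocyte (median -0.40) and 1 of 8 microglial probe sets (median -0.075) were lower, again with 0 after adjustment. Their part in the NES values was not tested.

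By AF093267_s_at, HC signals of Homer1 were 841, 880, 909, 853 and 914, and 24NES ran from 813 through 1169 to 1407, with 7 of 10 above every HC animal. The change was 0.32 (SE 0.14, unadjusted p 0.0376, limma adjusted p 0.426), and without 24NES replicate 58 it was 0.30 (SE 0.14, unadjusted p 0.0531, limma adjusted p 0.405). In 72NES the same probe set ran from 575 through 831 to 1096. Between the NES durations it differed by -0.44 (SE 0.13, limma adjusted p 0.667), AF093268_s_at by -0.42 (SE 0.12, limma adjusted p 0.657) and Dlg4 by 0.31 (SE 0.13, limma adjusted p 0.667). In that comparison 0 probe sets of all passed after adjustment (0%), and 3 of 13 members against 7.46% of all were called without it. Dlg4 in 72NES ran from 5702 through 5984 to 7617, with 3 of 6 above the highest HC animal, and its change was 0.39 (SE 0.15, unadjusted p 0.0173, limma adjusted p 0.928).

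SD was compared with NES directly at matched durations over 37 arrays of cohort 1, where training may differ between the groups as well. At 24 hours 0 of 13 members were called after adjustment (0.0114% of all) and 3 of 13 without it (5.97% of all), all of them lower in SD (3.7% of all). These were AF093268_s_at of Homer1 (-0.33, SE 0.14, limma adjusted p 0.703), Grip1 (-0.49, SE 0.23, limma adjusted p 0.808) and Nlgn1 (-0.29, SE 0.13, limma adjusted p 0.754). At 72 hours 0 of 13 were called by either rule (0% and 6.69% of all). AB003726_at of Homer1 differed there by 0.17 (SE 0.16, interval -0.14 to 0.49, limma adjusted p 0.891), so a difference of SD from NES for this probe set was not shown, nor was its absence.

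The cohorts differed far more than the treatments did, a comparison added after the data had been seen. In the 53 HC and SD arrays, 11 of 13 member probe sets passed an adjusted p of 0.05 between cohorts in limma, against 50.4% of all, and 12 of 13 without adjustment, against 56.2%. All 6 Homer1 probe sets were higher in cohort 2, from 0.38 (SE 0.093, adjusted p 0.000547) for AB003726_at to 0.71 (SE 0.079, adjusted p 1.49e-10) for AF093267_s_at. U67137_at of Dlgap1 (0.25, SE 0.071) and AF090113_g_at of Grip2 (0.18, SE 0.046) were higher too. Dlg4 (-0.30, SE 0.11), Nlgn1 (-0.30, SE 0.070) and AF090113_at of Grip2 (-0.13, SE 0.053) were lower, so the Grip2 probe sets went opposite ways. Dlgap1 by U67987_s_at (-0.11, limma adjusted p 0.0627) and Grip1 (0.12, limma adjusted p 0.344) were not called. Over all probe sets the median was -0.058. The study reports that the background signal of the arrays differed between the cohorts. The part of array background in the cohort differences of the members, and of the cell markers below, was not tested.

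Markers of several cell types differed between the cohorts, where 50.4% of all probe sets passed the adjusted test. It was passed by 8 of 12 astrocyte, 5 of 11 oligodendrocyte, 7 of 8 microglial, 1 of 4 choroid plexus and 1 of 2 blood probe sets. Of 3 CA1 markers 2 passed the adjusted test and were higher in cohort 2, with a median of 0.51 over the list, and of 5 dentate probe sets 3 passed it, 2 of them higher and 1 lower, with a median of 0.024. The log2 of the summed signal of 3 CA1 markers ran from 10.98 to 11.51 in HC of cohort 1 and from 11.70 to 12.64 in HC of cohort 2. Of 7 probe sets for CA3 markers 6 passed the adjusted test and were lower in cohort 2, with a median of -0.52, and their sum ran from 13.38 to 13.78 and from 13.02 to 13.91 in the HC groups. The part of these markers in the Homer1 difference was not tested, and the training of cohort 1 and the cohort itself cannot be told apart.

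How far probe sets moved together within a group and cohort was described by the correlation of their residuals over 69 arrays, which share chip, scaling and tissue block. For Homer1, AB017140_at and AB017140_g_at, of 1 mRNA, had r 0.66, AF093267_s_at and AF093268_s_at 0.53, and AF093267_s_at and AB017140_at 0.50. AB003726_at had r from -0.047 to 0.28 to the other 5 and AB007688_s_at from -0.026 to 0.35. AB003726_at had its highest r among the members with Dlg4 (0.41). The Grip2 probe sets had r 0.47.

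**Figure D4:**
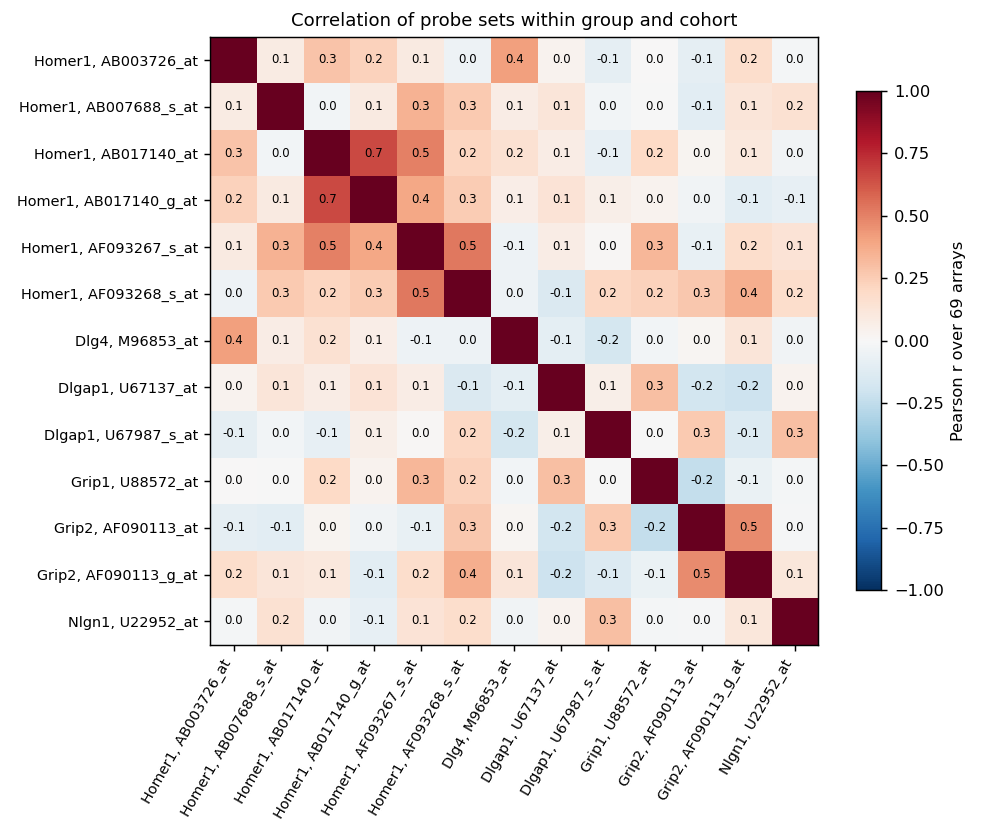
Pearson r between the 13 probe sets over 69 arrays after removal of each group-and-cohort mean, coloured from -1 to 1. The block of Homer1 probe sets reaches 0.66, while AB003726_at has 0.41 with Dlg4.

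Across all other genes, those most like AB003726_at were Vgf (r 0.57), the neuropeptide Npy (0.55), Crhbp, which binds corticotropin-releasing hormone (0.52), C9h6orf141 (0.49) and Wipf3 (0.49). The 95th percentile of r with AB003726_at over all probe sets with 1 gene symbol was 0.23. The 5 named were picked as the highest, so they lie above it by selection. Vgf itself gave 0.19 (SE 0.066, limma adjusted p 0.497) and Crhbp 0.31 (SE 0.095, limma adjusted p 0.328) in 72SD. AF093267_s_at was most like Ube2b (0.79), Ndufa5 (0.76), Nalcn (0.75), Cdk17 (0.74) and Hnrnpf (0.71), and AF093268_s_at like Klk8 (0.62), Ccnd2 (0.58), Rps24 (0.56), Gabbr1 (0.54) and Fkbp2 (0.53). Without the 2 arrays where AF093268_s_at lay farthest from its median residual, its 5 r ran from 0.36 (Gabbr1) to 0.52 (Klk8). The same step gave 0.39 (Wipf3) to 0.54 (Vgf) for AB003726_at and 0.69 (Ndufa5) to 0.73 (Ube2b) for AF093267_s_at. AB017140_at was most like Slc25a5 (0.68), Ptp4a2 (0.65), Akr1b1 (0.63), Dusp6 (0.62) and Adgrl2 (0.60), and Ptp4a2, Dusp6, Adgrl2 and Slc25a5 were also among the 5 most like AB017140_g_at, with Atp2b1 (0.57). AB007688_s_at was most like Dnttip1 (0.57), Psat1 (0.54), Gstm5 (0.53), Fez2 (0.53) and Nckap1 (0.52). AB003726_at and AF093267_s_at thus shared none of their 5 genes.

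Genes that the scaffolds bind were counted in the same way. Of the partners in the postsynaptic density (55 probe sets of 30 genes), 1 passed after adjustment in 24SD (0.206% of all): Camk2g, a subunit of the calcium and calmodulin kinase, fell by 0.35 on the log2 scale (SE 0.077, limma adjusted p 0.0277), and gave -0.25 (SE 0.072, limma adjusted p 0.307) in 72SD. Unadjusted, 3 were higher and 7 lower in 24SD (5.69% and 9.08% of all), and 4 and 5 in 72SD (3.1% and 4.06% of all), with medians of -0.024 and -0.019. The next of that list by the F-test were Mpdz, a protein of many PDZ domains (0.39, SE 0.11, in 24SD and 0.31, SE 0.10, in 72SD), the spine regulator Sipa1l1 (0.20, SE 0.061, and 0.19, SE 0.057) and Begain, a DLG4 binder (0.15, SE 0.14, and -0.29, SE 0.13), none of them called after adjustment.

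Among partners of Homer1 (19 probe sets of 10 genes) 0 were called after adjustment in 24SD or 72SD. Without adjustment 3 were higher and 1 lower in 24SD, and 3 higher and 0 lower in 72SD (14.8% and 7.16% of all in either direction). The channel Trpc1 gave 0.26 (SE 0.064, limma adjusted p 0.0543) in 24SD and 0.19 (SE 0.060) in 72SD, and the IP3 receptor Itpr1 gave 0.18 (SE 0.069) and 0.19 (SE 0.064) by U38812_s_at and 0.12 (SE 0.048) and 0.04 (SE 0.045) by J05510_at. Shank2 gave -0.37 (SE 0.16) in 24SD and 0.11 (SE 0.15) in 72SD. The median change of the list was 0.081 in 24SD and 0.024 in 72SD. Receptors and channels bound by the scaffolds (32 probe sets of 17 genes) also had 0 adjusted calls. Unadjusted, 3 were higher and 5 lower in 24SD (5.69% and 9.08% of all). In 72SD 2 were higher and 1 lower (3.1% and 4.06% of all). The medians were -0.067 and -0.040. Among them stood Grin2d, an NMDA receptor subunit, at -0.26 (SE 0.063, limma adjusted p 0.0538) in 24SD and -0.10 (SE 0.059) in 72SD. The potassium channel Kcnj10 gave -0.30 (SE 0.085) and -0.69 (SE 0.20) by its probe sets in 24SD, and -0.098 (SE 0.079) and -0.34 (SE 0.18) in 72SD. The receptor kinase Erbb4 gave -0.34 (SE 0.21) in 24SD and -0.54 (SE 0.20) in 72SD. In the adhesion list of Nlgn1 (16 probe sets of 10 genes) 0 were called after adjustment. Unadjusted, 1 was higher and 3 lower in 24SD and 0 higher and 1 lower in 72SD, beside the same shares of all. The medians were -0.078 and -0.074. Nrxn3, a neurexin, gave -0.18 (SE 0.064) in 24SD and -0.18 (SE 0.060) in 72SD. Ncam1 gave -0.25 (SE 0.086) and -0.15 (SE 0.080), Cntnap1 -0.18 (SE 0.068) and -0.11 (SE 0.064), and Adgrl3 0.09 (SE 0.066) and -0.07 (SE 0.062).

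Activity-induced genes, the class that Homer1 short forms belong to, were counted in the same way (48 probe sets of 21 genes). In 24SD 3 were higher and 7 lower at an unadjusted p under 0.05 (5.69% and 9.08% of all), in 72SD 2 and 3 (3.1% and 4.06% of all), and 0 were called after adjustment in either. Egr1 gave -0.25 (SE 0.071, limma adjusted p 0.0931) in 24SD, the phosphatase Dusp6 0.21 (SE 0.071), Inhba -0.44 (SE 0.16) and Vgf 0.08 (SE 0.071). In 24NES 12 were higher and 1 lower (6.67% and 4.06% of all), 0 after adjustment, and the median was 0.12. At 72 hours, the SD change was lower in cohort 2 than in cohort 1 for 42 of 48 and higher for 6, with a median difference of -0.29. At an unadjusted p under 0.05 in limma, 12 were lower and 0 higher (4.73% and 2.93% of all), 0 after adjustment.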

How the data were processed

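CA1 RNA of 69 rats was hybridized to 1 Affymetrix rat expression array per animal. The deposited intensity values are MAS5 signals, which the authors left linear and scaled array by array. A floor of 1 preceded log2. Of 8799 probe sets 59 controls were left out. In the annotation, controls included, 7018 have 1 gene symbol and 308 several. Of the probe sets other than controls, 1426 are listed with none. SD (53 arrays, cohort as a term), NES (21 arrays of cohort 1) and SD against NES (37 arrays) were compared with limma 3.58.1 in R 4.3.3, adjusted by Benjamini-Hochberg over 8740 probe sets, with a threshold of 0.05; the number of arrays limits the precision. All member probe sets are named, with up to 4 probe sets of each other list by the smallest F-test p and the 5 genes most correlated with each Homer1 probe set. Members and lists were chosen with earlier results of these data known; the cohort comparison, Pou3f1, Man1a1 and Spink8, the exclusions of 24NES replicate 58 and 24SD replicate 32, and that of HC replicates 10 and 17 for their low Dlg4 signal, came after the values were seen. Symbols came from the 2016 platform annotation and coordinates from RefSeq, GRCr8. The fits were tested on simulated data. Alternatives covered scaling, floor, filter, moderation, RNA quality, cohort, single arrays and the methods' ANOVA. Figures were drawn with Python 3.11.15 and matplotlib 3.10.9. Detection calls were not used here.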

Additional observations from a re-analysis of the deposited data

Results flagged for a closer look

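Within single groups of 4 to 10 animals, 4 of 78 tested probe set and group pairs held 1 animal far from the rest, and chance gives about 1 in 20. Each gap to the nearest animal was taken on the log2 scale as a share of the group's range, and the signals in brackets are linear. The gap was 0.735 for Homer1 by AB017140_at in HC replicate 3 of cohort 1 (3877 against 3265). It was 0.734 for Dlgap1 by U67137_at in the same animal (4365 against 2671), whose GAPDH ratio was 1.18. It was 0.777 for Grip1 in 72NES replicate 68 (27.3 against 107, the lowest) and 0.534 for Grip2 by AF090113_at in 24SD replicate 29 of cohort 2 (1502 against 1178). Of 52 tested differences of an effect between groups, 0 passed an adjusted p of 0.05 in limma.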

How the results depend on the processing

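The count of members called after adjustment was 0 in each of the 11 treatment comparisons and stayed 0 under every alternative run. The smallest adjusted p was 0.0529, under the methods' ANOVA with removal of values over 2 SD, which narrows the spread within groups. With all values kept, the smallest adjusted p of that ANOVA was 0.209. No change with an unadjusted p under 0.05 turned its sign under any alternative. In cohort 1 alone, 3 of 12 such results kept that p, and in cohort 2 alone 5 of 12. Without HC replicates 10 and 17 7 of 10 did, without 24SD replicate 32 11 of 12, and without 24NES replicate 58 4 of 7. Dlg4 in 72NES was 0.31 (SE 0.16, unadjusted p 0.0626) without HC replicate 3. No paired analysis was possible because the groups share no replicate numbers.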
